A study of Mus musculus with 10 samples.

Results

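The genes of the insulin-like growth factor (IGF) system were followed in the anterior fontanelle (AF) region of mouse embryos at E18.5. The 10 genes were taken by symbol as a gene family, not by a threshold on their values, and comprise the ligands *Igf1* and *Igf2*, the receptors *Igf1r* and *Igf2r*, and the binding proteins *Igfbp2*, *Igfbp3*, *Igfbp4*, *Igfbp5*, *Igfbp6* and *Igfbp7*. All 10 were among the 23080 genes of the authors' table and all 10 passed the filter on low counts, which left 16267 genes to test. By their genotype labels, 5 libraries are WT and 5 are Wnt1-Cre; Fgfr2fl/fl, which the titles call NCC (neural crest cell) Fgfr2 KO. Each library is bulk total RNA of dissected AF tissue, a mix of bone and sutural mesenchyme from which overlying skin and underlying brain had been taken away. *Wnt1-Cre* drives recombination of floxed *Fgfr2* in neural crest cells, which form the frontal bones and the AF mesenchyme, so that vessels, blood and other cells of mesodermal origin keep the receptor. The labels call the controls WT, and the study describes its RNA-seq samples as littermate pairs. No label says which libraries came from one litter, so the main tests here are unpaired.

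IGF1 and IGF2 are secreted growth factors related to insulin that promote cell growth, survival and skeletal growth. Both signal through the receptor tyrosine kinase IGF1R, whereas IGF2R, the mannose 6-phosphate receptor, takes up IGF2 for breakdown in lysosomes. The IGF-binding proteins hold the ligands in the extracellular space and in matrix, and proteases such as PAPP-A release them. IGFBP5 is the form known for its abundance in bone matrix, IGFBP6 prefers IGF2, and IGFBP7 binds IGFs only weakly. *Igf2* and *Igf2r* are imprinted in the mouse, the first expressed from the paternal and the other from the maternal allele.

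The targeted gene was measured first. *Fgfr2* (chromosome 7, 130162451 to 133123350, GRCm38) stood at 200.2, 235, 176, 195 and 192 CPM (counts scaled to a common library total after TMM normalization) in the control-labelled libraries, replicates 1 to 5, and at 299, 273, 325, 338 and 357 CPM in the mutant-labelled libraries. All mutant-labelled libraries lay above all control-labelled libraries, a difference of 0.67 on the log2 scale (SE 0.090; edgeR's quasi-likelihood test, adjusted p = 0.0487). The log2 difference was 0.63 to 0.75 when each library was left out in turn, and the call was lost in 8 of these 10 fits, with adjusted p-values up to 0.260. *Ctbp2*, on the same strand, shares 3.04% of the exon bases annotated to *Fgfr2*. Gene totals cannot tell recombined from intact transcripts. Since these totals went against the label, libraries are named control-labelled or mutant-labelled, and each direction follows the label. Beside this, all 15 osteoblast genes of a marker list had lower values in the mutant-labelled libraries. Of 8 tendon and AF mesenchyme genes, 5 had higher values, with the largest log2 fold changes in *Tnmd* (0.58) and *Matn4* (0.64). Lower values were seen for *Tnc* (−0.25), *Thbs4* (−0.56) and *Egr1* (−0.22). Library totals were 20774645 to 28515403 counts, of which ribosomal RNA genes and *Lars2* took 19.4% to 34.9%. The labelled tissue was checked against markers. Osteoblast genes such as *Sp7* and *Ibsp* and AF genes such as *Tnmd* and *Matn4* were present in all libraries, and 8 epidermal genes summed to 11.3 to 18.3 CPM. Skeletal muscle genes summed to 890.3 CPM in control-labelled replicate 2 and 938 CPM in mutant-labelled replicate 1, against 29.0 to 185.2 CPM in the other libraries. Genes of neurons and glia summed to 445 CPM in mutant-labelled replicate 2 and to 58.2 to 182 CPM in the other 9 libraries. That library was also the lowest of all in *Igf2*, *Igf2r*, *Igfbp4* and *Igfbp5*, and without it their log2 fold changes were 0.079, 0.059, 0.21 and −0.16, with adjusted p-values of at least 0.570 by edgeR's quasi-likelihood test.

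The levels of the 10 genes were first compared with each other, as CPM per kb of annotated exon, so that gene length did not set the order. *Igf2* was the most abundant member, at 911 ± 41.0 CPM per kb in control-labelled libraries (SD, n = 5), which placed it at rank 26 of 15817 genes with a known length. It took 0.686% to 0.797% of all counts outside the ribosomal RNA genes, and the 10 genes together took 1.27% to 1.49%. *Igfbp5* followed at 439.8 ± 48.2 CPM per kb (rank 62), below *Igf2* in all 10 libraries. *Igfbp4* (131 ± 9.53 CPM per kb), *Igfbp2* (106 ± 14.2) and *Igfbp3* (94.3 ± 14.8) came next, and in the control-labelled libraries the range of each of these overlapped that of its neighbour in the order. *Igfbp7*, at 70.0 ± 9.59 CPM per kb, overlapped *Igfbp3* in range but was below it in each of the 10 libraries. *Igf2r* (47.6 ± 4.07), *Igf1* (23.4 ± 3.48) and *Igf1r* (9.35 ± 0.820) formed 3 separate steps with no overlap. *Igfbp6*, at 7.21 ± 2.36 CPM per kb, was the least abundant, and its range overlapped that of *Igf1r*. The order of the group means was the same in the mutant-labelled libraries. These levels use the length of all annotated exons of a gene together, so a gene with many alternative exons is set too low.

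**Figure D1:**
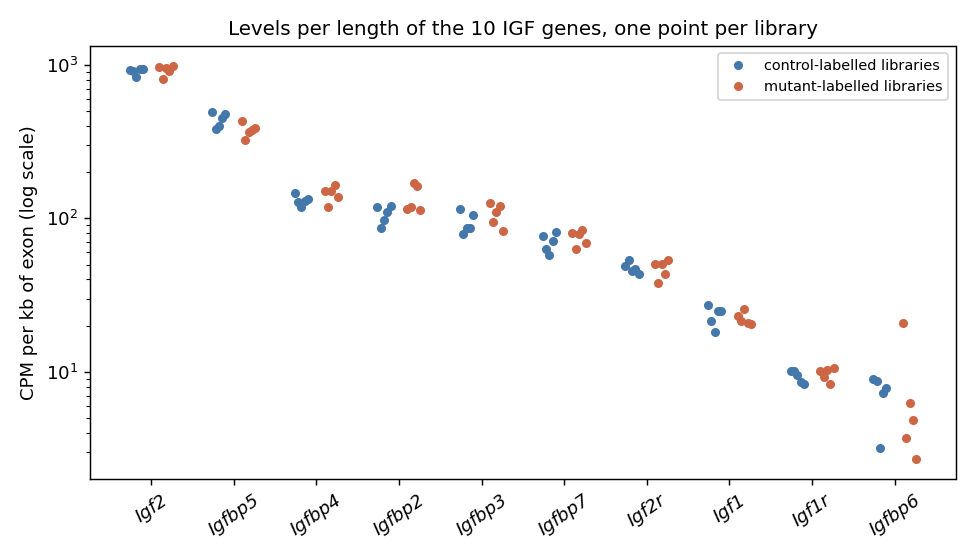
CPM per kb of annotated exon (log scale) for the 10 IGF genes, one point per library, control-labelled libraries in blue and mutant-labelled libraries in orange. *Igf2* lies highest and *Igfbp5* next in all 10 libraries, and *Igfbp6* shows the widest scatter, from 2.70 to 20.9 CPM per kb in the mutant-labelled libraries.

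The first comparison asked whether the expression of the IGF genes differed between the groups. None of the 10 genes passed an adjusted p-value of 0.05 in edgeR's quasi-likelihood test, where the adjusted p-values ran from 0.631 to 0.981, nor in DESeq2's Wald test or limma voom. Among all genes tested, 0.0184% passed this threshold. At an unadjusted p-value under 0.05 there was 1 of the 10 genes, *Igfbp2*, with a higher value in the mutant-labelled libraries, against 7.49% of all genes tested in either direction and 3.68% in that direction. The median log2 fold change of the 10 genes was 0.070, with 7 higher and 3 lower, and that of all genes was 0.00073. The median size of the change, regardless of sign, was 0.092 for the 10 genes and 0.091 for all genes. For none of the 10 genes did the groups separate without overlap, which happened in 1.48% of all genes.

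**Figure D2:**
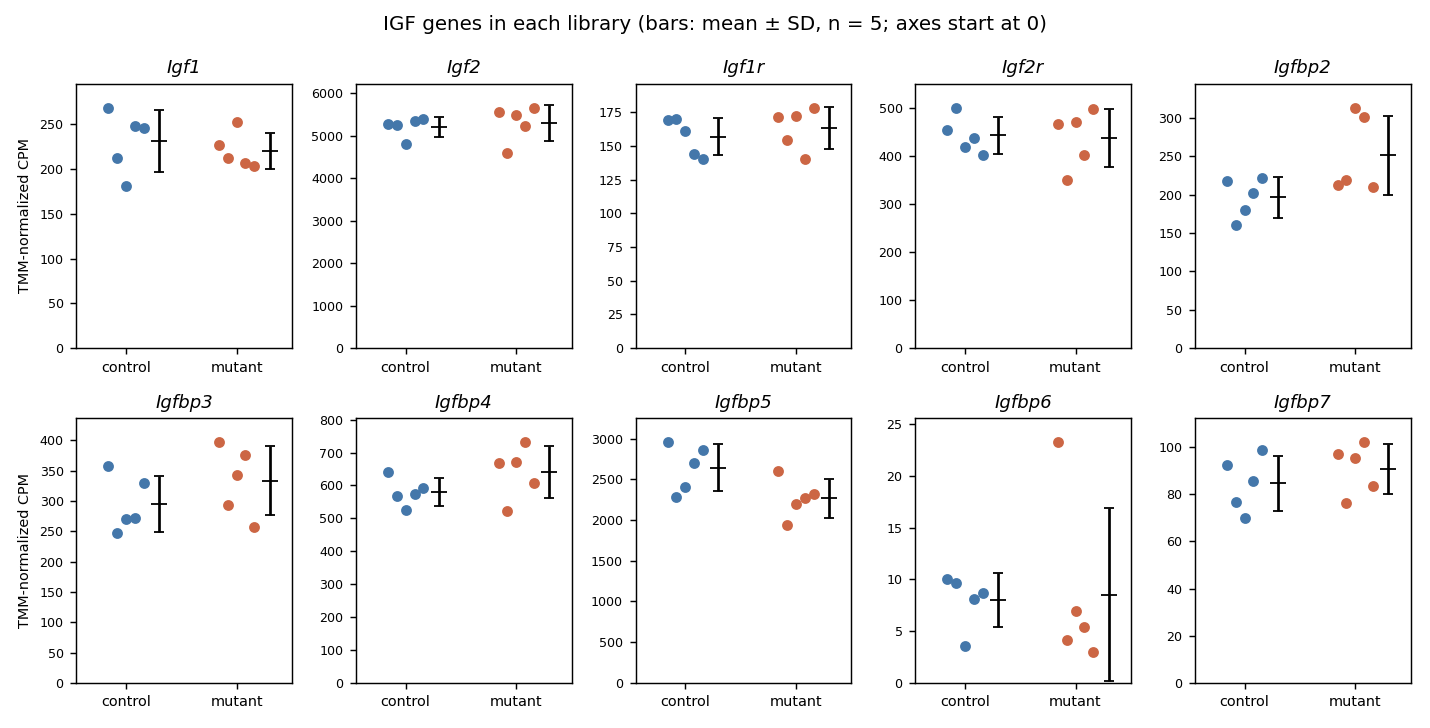
TMM-normalized CPM of each IGF gene in the 5 control-labelled (blue) and 5 mutant-labelled (orange) libraries, with the mean ± SD beside the points and each axis starting at 0. The groups overlap for all 10 genes, and *Igfbp6* holds 1 mutant-labelled library at 23.2 CPM.

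The ligands differed between the groups by less than the spread between libraries. *Igf2* lies on chromosome 7 from 142650766 to 142666816 on the minus strand, next to the insulin gene *Ins2*. It was at 5272, 5251, 4804, 5346 and 5387 CPM in control-labelled replicates 1 to 5 and at 5559, 4599, 5489, 5223 and 5663 CPM in the mutant-labelled replicates. Both the 3 highest libraries and the lowest one were mutant-labelled. The means were 5212 ± 234 and 5306 ± 428 CPM (SD, n = 5 each), with a fitted log2 difference of 0.026 with a 95% interval of −0.16 to 0.21 (adjusted p = 0.966 by edgeR's quasi-likelihood test; two-sided exact permutation test, p = 0.675). The interval leaves out a fall to under 0.894-fold and a rise to over 1.16-fold. With 112991 to 153081 counts per library, counting error adds little to this spread. *Gm49394*, a gene on the same strand, shares 62.8% of the exon bases of *Igf2*, but it held no more than 47 counts in any library.

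*Igf1* (chromosome 10, 87858265 to 87937042) stood at 268, 213, 181, 248 and 246 CPM in control-labelled replicates 1 to 5. In the mutant-labelled replicates it was at 227, 212, 253, 207 and 203 CPM. All mutant-labelled values fell within the range of the controls. The log2 fold change was −0.069, with a 95% interval of −0.30 to 0.16 (adjusted p = 0.913 by edgeR's quasi-likelihood test). Per length, *Igf2* exceeded *Igf1* by 39.6 ± 4.72 times in control-labelled and by 41.9 ± 4.50 times in mutant-labelled libraries (SD, n = 5 each), with overlapping ranges.

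The receptors likewise showed overlapping groups. *Igf1r*, the signaling receptor, on chromosome 7 from 67952827 to 68233668, ranged from 141 to 169.8 CPM in the controls and from 141 to 179 CPM in the mutant-labelled group. Its log2 fold change was 0.058, with a 95% interval of −0.12 to 0.23 (adjusted p = 0.905 by edgeR's quasi-likelihood test). *Igf2r*, the clearance receptor, on chromosome 17 from 12682406 to 12769664, ranged from 403 to 501.3 CPM and from 352 to 499.5 CPM, respectively, and had a log2 fold change of −0.016 (95% interval −0.23 to 0.20, adjusted p = 0.980 by the same test). The sign for *Igf2r* turned when any of 4 libraries was left out, between −0.067 and 0.059. Per length there was 5.10 ± 0.323 times as much *Igf2r* as *Igf1r* in control-labelled and 4.84 ± 0.420 times as much in mutant-labelled libraries.

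Among the binding proteins, *Igfbp2* and *Igfbp5* had the smallest unadjusted p-values of the family, with opposite signs. The 2 genes are neighbours on chromosome 1, where *Igfbp2* (72824503 to 72852474, plus strand) and *Igfbp5* (72857932 to 72874884, minus strand) point towards each other with 5457 bp between their ends. No exon base of either is shared with another annotated gene. *Igfbp5* was at 2954, 2287, 2401, 2700.2 and 2867 CPM in control-labelled replicates 1 to 5. In the mutant-labelled replicates it was at 2602, 1937, 2203, 2274 and 2320.3 CPM. The lowest 3 mutant-labelled libraries lay below the lowest control-labelled library and none reached the control median. The means were 2642 ± 289.8 and 2267 ± 239 CPM (SD, n = 5 each), with a fitted log2 difference of −0.22 (SE 0.10, 95% interval −0.44 to 0.0014). The unadjusted p-value was 0.0512 and the adjusted p-value 0.659 by edgeR's quasi-likelihood test, and the two-sided exact permutation test gave p = 0.0556. With the replicate numbers as a block, which no label ties to litters, the unadjusted p-value was 0.0255 and the adjusted p-value 0.703 by edgeR's quasi-likelihood test. *Igfbp5* therefore did not pass the adjusted threshold in either fit.

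*Igfbp2* was at 218, 159.9, 179.6, 203 and 222 CPM in control-labelled replicates 1 to 5. In the mutant-labelled replicates it was at 213, 219.6, 313, 301 and 209.5 CPM. Replicates 3 and 4 of the mutant-labelled group lay far above all other libraries, while the other three mutant-labelled libraries were within the control range. The means were 196 ± 26.2 and 251 ± 51.4 CPM (SD, n = 5 each), with a fitted log2 difference of 0.36 (SE 0.14, 95% interval 0.057 to 0.66). The unadjusted p-value was 0.0235 and the adjusted p-value 0.631 by edgeR's quasi-likelihood test, and the two-sided exact permutation test gave p = 0.0873. Over the alternatives its adjusted p-value ran from 0.354 to 0.999. Without mutant-labelled replicate 3 or replicate 4 its unadjusted p-value was 0.0578 and 0.0575, and without control-labelled replicate 2 it was 0.0523.

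**Figure D3:**
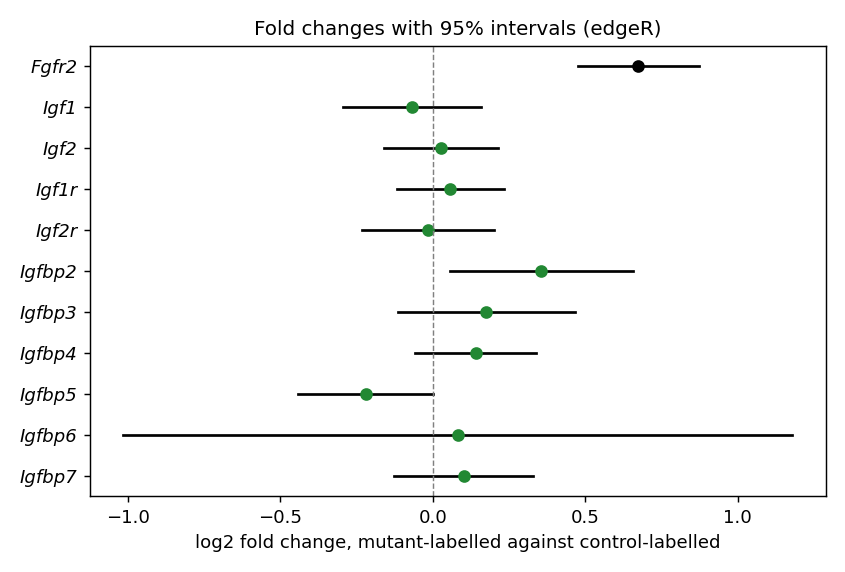
Log2 fold change of *Fgfr2* (black) and the 10 IGF genes (green), mutant-labelled against control-labelled libraries, with 95% intervals from edgeR's fit over 16267 genes. The intervals of 9 IGF genes include 0, that of *Igfbp2* runs from 0.057 to 0.66, and that of *Igfbp6* is the widest, from −1.01 to 1.18.

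The ratio of the 2 neighbouring genes separated the groups, although neither gene did so alone. Per length, *Igfbp5* exceeded *Igfbp2* by 4.17, 4.398, 4.11, 4.10 and 3.98 times in control-labelled replicates 1 to 5. In the mutant-labelled replicates the ratio was 3.76, 2.71, 2.16, 2.32 and 3.41. All 5 mutant-labelled libraries lay below all 5 control-labelled libraries, with replicates 3 and 4 lowest. On the log2 scale the ratio differed by −0.56 between the group means, with an SD of 0.054 in controls, the smallest of all 45 ratios between members, and of 0.34 in mutant-labelled libraries. The difference stayed between −0.67 and −0.47 when any library was left out. A ratio within a library does not depend on how the libraries are scaled. Of the 45 ratios between members, 3 separated the groups without overlap (6.67%), against 1.48% of all pairs of genes tested. The other two were *Igfbp4* to *Igfbp5* (higher by 0.35 on the log2 scale in mutant-labelled libraries) and *Igfbp5* to *Igfbp7* (−0.32). The ratios named here were singled out after the values were seen and were not tested.

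The make-up of the binding proteins was also described. It uses the same values as the ratios, so it is not separate support for them. It was likewise looked at after the values were seen and was not tested. *Igfbp5* made up 51.5%, 50.9%, 52.4%, 52.6% and 51.5% of the summed level per length of *Igfbp2* to *Igfbp7* in the control-labelled replicates. In the mutant-labelled replicates it made up 46.7%, 44.8%, 41.5%, 41.3% and 48.8%. *Igfbp2* made up 11.6% to 12.96% in control-labelled and 12.4% to 19.2% in mutant-labelled libraries, which overlap. The total itself was 849 ± 93.3 and 848 ± 89.0 CPM per kb (SD, n = 5 each), with overlapping ranges. When CPM was used without division by length, the share of *Igfbp5* was 68.3% to 70.3% in control-labelled and 60.01% to 66.7% in mutant-labelled libraries.

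**Figure D4:**
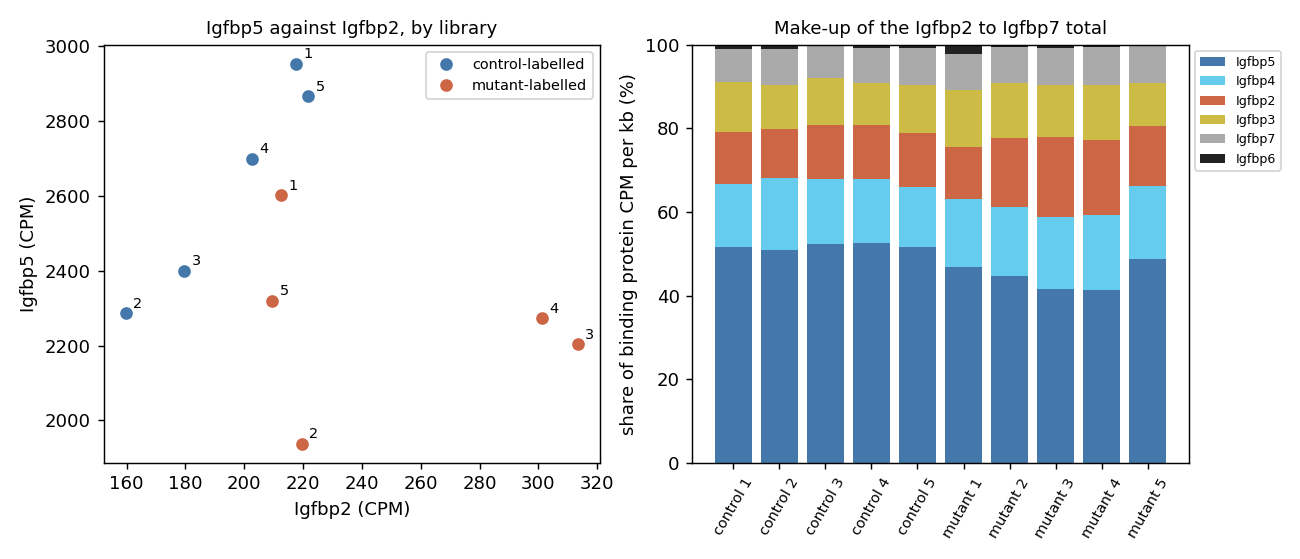
Left, *Igfbp5* against *Igfbp2* in CPM, one point per library with its replicate number. Right, the share (%) of each binding protein in their summed CPM per kb for each library. The share of *Igfbp5* is 50.9% to 52.6% in the 5 control-labelled libraries and 41.3% to 48.8% in the 5 mutant-labelled libraries.

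Markers of the tissue's cell types also differed in value. Of 15 osteoblast genes, all 15 had lower values in the mutant-labelled libraries and 9 had an unadjusted p-value under 0.05, against 3.82% of all genes in that direction, with a median log2 fold change of −0.24. Their summed level, most of it *Col1a1* and *Col1a2*, overlapped between the groups (100419 to 117839 CPM and 82874 to 119947 CPM). Of 8 tendon and AF mesenchyme genes, 4 (*Scx*, *Tnmd*, *Mkx* and *Matn4*) had higher and 1 (*Tnc*) lower values at the same threshold, and their summed level was 1763 to 2036 CPM in controls and 1513 to 1878 CPM in the mutant-labelled group. In mutant-labelled replicates 3 and 4, where *Igfbp2* was highest, 3 of these 8 genes (*Tnmd*, *Matn4* and *Fmod*) also had their 2 highest values, with *Tnmd* at 77.7 and 83.2 CPM. The other five did not, with *Scx* at 6.72 CPM in replicate 3, the lowest of the mutant-labelled group. With an osteoblast score as a covariate, the log2 fold change of *Igfbp5* was −0.11 and that of *Igfbp2* 0.55, with unadjusted p-values of 0.562 and 0.0529 by edgeR's quasi-likelihood test. The score is the mean of the 15 osteoblast genes, all lower in the mutant-labelled libraries, so this fit cannot part the score from the label. Genes at an unadjusted p-value under 0.05 went from 1219 to 679 of all genes tested. In bulk RNA, fewer cells of a type and less RNA per cell cannot be told apart, and the part of cell make-up in the ratio was not tested.

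The sequences just upstream of the 2 genes are shown because these neighbours had the largest difference of the 3 ratios above. They are the 250 bases before the RefSeq start (GRCm38.p6), 5′ to 3′ on the strand of the gene, *Igfbp2* at chr1:72824230-72824479 (plus strand) and *Igfbp5* at chr1:72874866-72875115 (minus strand), and capitals mark matches to the motifs searched.
Igfbp2: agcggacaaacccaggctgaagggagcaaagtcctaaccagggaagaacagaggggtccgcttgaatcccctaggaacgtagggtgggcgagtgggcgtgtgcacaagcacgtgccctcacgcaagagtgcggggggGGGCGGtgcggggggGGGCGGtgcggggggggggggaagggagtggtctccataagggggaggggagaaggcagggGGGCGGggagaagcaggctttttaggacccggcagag
Igfbp5: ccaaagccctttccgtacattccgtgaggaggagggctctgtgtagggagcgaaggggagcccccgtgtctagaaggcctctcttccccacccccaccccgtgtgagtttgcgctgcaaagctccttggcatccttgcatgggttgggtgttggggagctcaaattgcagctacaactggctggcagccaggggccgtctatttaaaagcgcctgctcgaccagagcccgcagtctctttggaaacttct
All motifs were searched on both strands. The letters searched for the TATA box, found upstream of many regulated genes, were TATAAA. Those for the GC box, which Sp1 proteins bind, were GGGCGG. Those for the core bound by RUNX factors of bone were TGTGGT. Those for the core bound by the Wnt effectors TCF and LEF were CTTTGA. No matches overlapped in these windows. The *Igfbp2* window held 3 GC boxes, at 113, 98 and 37 bases before the start, and was 67.2% G and C. The *Igfbp5* window held no exact match to the letters of the 4 motifs and was 58.8% G and C. Variants of these letters were not searched. Over 32851 promoter windows of the same length, 12.4% held the TATA box, 32.7% the GC box, 14.0% the RUNX core and 13.8% the TCF/LEF core, and the median content of G and C was 52.4%. A match is a string of letters and does not show binding.

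The other abundant binding proteins had higher means in the mutant-labelled libraries without passing the threshold. *Igfbp4* (chromosome 11, 99041244 to 99054392) stood at 642, 569, 525.9, 573 and 593 CPM in replicates 1 to 5 of the controls and at 667, 522, 671, 731 and 607 CPM in those of the mutant-labelled group. Both its 3 highest libraries and its lowest were mutant-labelled. The log2 fold change was 0.14 (95% interval −0.059 to 0.34, adjusted p = 0.745 by edgeR's quasi-likelihood test). *Igfbp3*, which the study uses as a marker of ectocranial mesenchyme, lies on chromosome 11 from 7206086 to 7213923 beside *Igfbp1*. It was at 358, 248, 270.2, 271 and 329 CPM in the control-labelled replicates and at 397, 294, 343, 375 and 258 CPM in the mutant-labelled replicates, 1 to 5, with 2 mutant-labelled libraries above all controls. The log2 fold change was 0.18 (95% interval −0.11 to 0.47, adjusted p = 0.795 by the same test), and 0.013 with the osteoblast score as a covariate. *C1qtnf3*, another ectocranial marker, was at 75.7 CPM on average in controls and 97.3 CPM in the mutant-labelled group. It was the 1 gene of the 6 on the ectocranial list with an unadjusted p-value under 0.05. Of the 6 genes, which include *Igfbp3*, 5 had a positive log2 fold change, and that of *Dcn* was −0.012. For *Clec3b*, *Pi16* and *Dpp4* the sign rests on mutant-labelled replicate 1. The other mutant-labelled libraries were at 0.984 to 4.17, 2.16 to 7.83 and 2.78 to 3.94 CPM, against control means of 8.45, 13.5 and 3.86 CPM. *Igfbp7*, on chromosome 5 from 77349240 to 77408041, ranged from 69.9 to 98.8 CPM and from 76.2 to 102 CPM, respectively, with a log2 fold change of 0.10 (95% interval −0.13 to 0.33, adjusted p = 0.860 by the same test). Exons of *Polr2b* on the opposite strand cover 7.03% of its exon bases, and whether the authors counted by strand is not given in the sources used here. *Igfbp7* is expressed by blood vessels, and the 8 endothelial genes summed to 635 to 786 CPM in controls and 596 to 767 CPM in the mutant-labelled group.

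*Igfbp6*, on chromosome 15 from 102144362 to 102149511, varied more than the other members. It was at 10.05, 9.67, 3.53, 8.13 and 8.71 CPM in control-labelled replicates 1 to 5. In the mutant-labelled replicates it was at 23.2, 4.13, 6.93, 5.36 and 3.003 CPM. Replicate 1 of the mutant-labelled group stood above all other libraries, and the other four were below the control median. The spread within groups was 0.91 on the log2 scale, larger than that of 98.0% of the 500 genes nearest to it in mean level. The log2 fold change was 0.082 with all libraries (95% interval −1.01 to 1.18, adjusted p = 0.981 by edgeR's quasi-likelihood test). It was −0.71 without mutant-labelled replicate 1 (unadjusted p = 0.0400, adjusted p = 0.638) and −0.098 without control-labelled replicate 3 (adjusted p = 0.982), and positive when any other library was left out. Values rest on 68 to 500 counts per library.

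Of the other genes of the ectocranial mesenchyme list, *Clec3b*, *Pi16* and *Dpp4* were also far highest in mutant-labelled replicate 1. *Clec3b*, which the study uses to mark the hypodermis, was at 45.2 CPM in mutant-labelled replicate 1 and at 0.984 to 13.8 CPM in the other 9 libraries. *Pi16* was at 76.6 CPM in that library and at 2.16 to 19.6 CPM elsewhere. *Dpp4* was at 22.5 CPM there and at 2.38 to 4.74 CPM elsewhere. *Pi16* and *Dpp4* are known from fibroblasts of fascia and adventitia. Control-labelled replicate 3, the lowest of its group in *Igfbp6*, was also the lowest of its group in these 3 genes, at 2.13, 4.25 and 2.38 CPM. Elsewhere the genes parted, since mutant-labelled replicate 3, next in its group in *Igfbp6*, had the lowest *Clec3b* of all libraries, and *Dcn* was at 561 CPM in mutant-labelled replicate 1 and at 604 CPM in control-labelled replicate 5. Over all 6 genes of the ectocranial mesenchyme list, which holds *Igfbp3*, mutant-labelled replicate 1 was highest, with 1225 CPM against 724 to 1054 CPM in the others. The same library had the highest sum of skeletal muscle genes, at 938 CPM. Control-labelled replicate 2 was close to it in that sum, at 890.3 CPM, and had *Igfbp6* at 9.67 CPM. The part of carried-over tissue in the *Igfbp6* values was not tested.

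**Figure D5:**
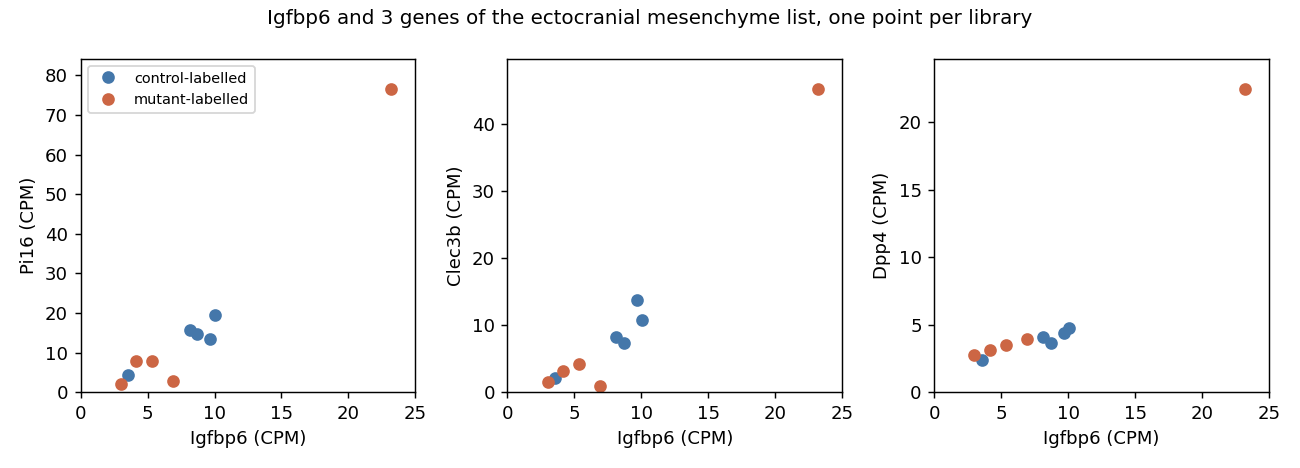
*Igfbp6* (x axis, CPM) against *Pi16*, *Clec3b* and *Dpp4* (y axes, CPM), one point per library. Mutant-labelled replicate 1, at 23.2 CPM of *Igfbp6*, is the highest library in each panel.

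To describe which genes varied like the members, log2 CPM with the group means removed was compared over the 10 libraries among 11015 genes with a mean of at least 5 CPM. The 3 genes with the highest Pearson correlation are given for 5 members, chosen after the values were seen, with no p-value, since they are the highest of many, and libraries that share tissue make-up or depth raise such values. For *Igfbp2* these were *Fmod* (r = 0.974), *Tnmd* (r = 0.953) and *Crnkl1* (r = 0.940), of which fibromodulin and tenomodulin are tendon and ligament products. For *Igfbp6* they were *Scara5* (r = 0.980), *Itih5* (r = 0.978) and *Efemp1* (r = 0.955). For *Igfbp5* they were *Cthrc1* (r = 0.976), a secreted product of bone and connective tissue cells, *Fam45a* (r = 0.959) and *Lrch1* (r = 0.952). For *Igfbp4* they were *Gpc3* (r = 0.964), a glypican, *Mfap2* (r = 0.948) and *Kpnb1* (r = 0.938). For *Igf2* they were *Lama4* (r = 0.967), *Pign* (r = 0.955) and *Slc38a4* (r = 0.954), and these values fell to 0.734, 0.722 and 0.708 without the 2 libraries farthest from the median of *Igf2*. For *Igf1r*, *Igf2r*, *Igfbp3* and *Igfbp7* the highest values were 0.970 (*Igf1r* with *Nploc4*), 0.989 (*Igf2r* with *Pcdh18*), 0.937 (*Igfbp3* with *Abi3bp*) and 0.955 (*Igfbp7* with *Nbn*).

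Among the members themselves, 37 of 45 pairs (82.2%) had a positive correlation by the same measure, with a median r of 0.50. Over all 60659605 pairs of the 11015 genes, 50.6% were positive and the median r was 0.0067. The pairs share libraries and genes, and the difference from all pairs was not tested. When the 2 libraries farthest from the median of the first gene of each pair were left out, 32 pairs were positive, the median r was 0.394 and 13 pairs turned sign, among them *Igf2* with *Igfbp4* (0.646 to −0.636). The highest was *Igfbp4* with *Igfbp7* (Pearson's r = 0.862, permutation test with 100000 permutations, p = 7.5e-04, adjusted p = 0.0337 over 45 pairs, Spearman's rho = 0.842, permutation p = 0.00339, adjusted p = 0.0763). Without the 2 libraries farthest from the median of *Igfbp4*, r was 0.840. Of all pairs of genes, 0.391% had an r at least as high as the 0.862 over all 10 libraries. No other pair passed an adjusted p-value of 0.05 by Pearson's r. These permutations moved values freely over the 10 libraries after the group means were removed. Their p-values can therefore be too low, and the call of this 1 pair is not secure. The lowest was *Igf1r* with *Igfbp2* (r = −0.457, permutation p = 0.178, adjusted p = 0.309, rho = −0.552, permutation p = 0.105, adjusted p = 0.233). Its r moved towards zero, to −0.080, without the 2 farthest libraries.

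Genes that act before and after the IGF receptors were counted on a list of 56 genes, of which 55 were in the table and 52 were tested. *Igfbp1*, the neighbour of *Igfbp3*, was not among the rows. None of the 52 genes passed an adjusted p-value of 0.05 by edgeR's quasi-likelihood test, and 1 (1.92%) passed an unadjusted p-value of 0.05, against 7.49% of all genes. Their median log2 fold change was 0.0085. The 1 gene was *Adam12*, a metalloprotease that cleaves IGFBP3 and IGFBP5. *Adam12* was at 139, 123, 139, 151 and 146 CPM in replicates 1 to 5 of the controls and at 128, 105, 134, 110.0 and 132 CPM in those of the mutant-labelled group, with overlap and a fitted log2 difference of −0.20 (SE 0.083, adjusted p = 0.643 by the same test; two-sided exact permutation test, p = 0.0635). With an osteoblast score as a covariate its value was 0.10.

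Some of the remaining genes of the list are given by role. The largest log2 fold change among the tested genes of the list was that of *Igfbpl1*, at 1.15. Its 95% interval ran from −0.26 to 2.56, and its adjusted p-value was 0.706 by edgeR's quasi-likelihood test. *Igfbpl1* ranged from 0.899 to 4.42 CPM in the controls and from 1.71 to 17.4 CPM in the mutant-labelled group. Of the proteases and inhibitors that control IGF release, *Pappa* was at 8.25 ± 1.06 and 7.59 ± 1.69 CPM, and *Pappa2* was at 42.7 ± 15.6 and 46.6 ± 4.52 CPM in control-labelled and mutant-labelled libraries (SD, n = 5 each). *Igfals*, the acid-labile subunit that carries IGFs in serum, was near the limit of detection at 0.646 ± 0.179 and 0.591 ± 0.217 CPM. The insulin receptor *Insr* was at 64.0 ± 7.06 and 66.2 ± 6.98 CPM, with a log2 fold change of 0.048 (95% interval −0.15 to 0.25). The adaptor *Irs1* was at 105 ± 11.7 and 106 ± 13.9 CPM, and the kinase *Akt1* at 171 ± 3.06 and 171 ± 4.16 CPM. The imprinted genes tied to fetal growth also overlapped between the groups. *H19*, the maternally expressed RNA beside *Igf2*, was at 6746 ± 409.7 and 6387 ± 549 CPM (log2 fold change −0.079, 95% interval −0.28 to 0.12). *Grb10*, an inhibitor of IGF and insulin signaling, was at 701.5 ± 61.7 and 736 ± 90.6 CPM (log2 fold change 0.070, 95% interval −0.14 to 0.28). The IGF2 mRNA-binding proteins had log2 fold changes of 0.16 (*Igf2bp1*), −0.16 (*Igf2bp2*) and −0.091 (*Igf2bp3*), with adjusted p-values from 0.663 to 0.701 by edgeR's quasi-likelihood test.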

How the data were processed

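Stranded total RNA libraries (Kapa Stranded Kit, single-end reads) were made from the AF of 5 control-labelled and 5 mutant-labelled embryos. The authors deposited 1 table of estimated counts per gene, not scaled between libraries, in which 66.4% of values were whole and no gene summed to under 10. The submitters' processing notes name Partek and mm10; the aligner, the counting tool and its use of strand are not given in the sources used here. Of 22533 symbols found in GENCODE M21 (GRCm38), 22296 had its positions, which are those printed. Here estimated counts were rounded, filtered and TMM-normalized, and tested with edgeR 4.0.16 (quasi-likelihood, no covariate, R 4.3.3), with Benjamini-Hochberg adjustment over 16267 genes (6813 left out). The design had assumed whole counts. The fit was tested on simulated data. Log2 CPM used a prior count of 0.5. Exact permutation tests covered 252 groupings and cannot go below p = 0.00794. DESeq2 1.42.0 and limma 3.58.1 served as alternatives, beside other scalings and filters, a replicate block, an osteoblast score, a table without ribosomal RNA genes and leaving out each library. Summing *Igf2* with *Gm49394* and the checks on the *Igfbp5* ratio and share were added after seeing the data.

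Members and gene lists were chosen with earlier results of these data known. Named genes were all members, *Fgfr2*, genes of the IGF list at an unadjusted p-value under 0.05, *Igfbp1*, *Igfals*, *Insr*, *H19*, *Grb10* and the 3 genes most like each member; others named were chosen after their values were seen. The genes most like *Igf1* are not reported here. The labels do not say whether replicates share a litter. The 20 pairs of libraries of a group all differed by more than sampling noise (chi-square per degree of freedom of at least 7.56).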

Additional observations from a re-analysis of the deposited data

Results flagged for a closer look

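A sample far from the others was looked for in 32 groups of 5 libraries (the 10 IGF genes, *Fgfr2* and 5 genes of the IGF list), by the gap to the nearest library over the range of the group, with 0.71 as the limit. Chance flags about 1 in 20 groups, and 2 were found. *Igfbp6* was at 23.2 CPM in mutant-labelled replicate 1, with the next library of that group at 6.93 CPM (gap over range 0.806). *Igf2* was at 4804 CPM in control-labelled replicate 3, with the next library of that group at 5251 CPM (gap over range 0.767).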

How the results depend on the processing

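No member passed an adjusted p-value of 0.05 under any alternative (lowest 0.354, for *Igfbp2* by DESeq2's Wald test), and 178 of 191 alternative values of the 10 members kept their direction. The count of members at an unadjusted p-value under 0.05 went from 1 to 2 (*Igfbp2* and *Igfbp5*) with DESeq2's Wald test, limma voom and the replicate block, to 0 with the osteoblast score, and ran from 0 to 3 when each library was left out (0 without mutant-labelled replicate 3 or 4, 3 without mutant-labelled replicate 1). With library size alone, and without control-labelled replicate 2, it stayed at 1, but the gene was *Igfbp5*. Without mutant-labelled replicate 2 it was 2, *Igfbp2* and *Igfbp4*. For the IGF list the count went from 1 to 2 with DESeq2's size factors, library size alone, limma voom, a minimum of 10 counts and the replicate block, and ran from 0 (without control-labelled replicate 1, 4 or 5) to 4 (without control-labelled replicate 2) over left-out libraries. With the osteoblast score, and without mutant-labelled replicate 2, it stayed at 1, but the gene was *Htra1*, with a higher value, in place of *Adam12*. *Adam12* was also not among the genes counted without control-labelled replicate 3 or mutant-labelled replicate 4. The log2 fold change of *Fgfr2* no longer passed the adjusted threshold with library size alone (0.63), no filter (0.67), the replicate block (0.68) or the osteoblast score (0.72), and was 0.63 to 0.75 over left-out libraries, with adjusted p-values of 0.00900 to 0.260 by edgeR's quasi-likelihood test. Signs turned with library size alone for *Igf2* (−0.021), with limma voom for *Igf2r* (0.042) and *Igfbp6* (−0.28), with the replicate block for *Igfbp6* (−0.22), and with the osteoblast score for *Igf1* (0.0075), *Igf2r* (0.12), *Igfbp6* (−1.06), *Adam12* (0.10) and *Igfals* (0.51). Over left-out libraries the values spanned 0 for *Igf2r* (−0.067 to 0.059), *Igfbp6* (−0.71 to 0.30) and *Igfals* (−0.33 to 0.0080). The cause of these shifts was not tested. Same-numbered libraries did not deviate together (r from −0.21 to 0.14, and none of the 10 libraries correlated best with its own number), so the numbers were not used as pairs; the block moved the calls over all genes from 3 to 1. That count was 95 with DESeq2's Wald test, 2 with no filter, 1 with library size alone, 0 with the osteoblast score and 1 to 6 over left-out libraries. *Igfals* rests on 9 to 22 counts per library.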
